A study of Mus musculus with 48 samples.

Results

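The genes examined here are 50 members of the transforming growth factor β (TGF-β) and bone morphogenetic protein (BMP) pathways, chosen by gene symbol from the 55450 genes of the expression tables: 3 TGF-β ligands, 12 BMP and GDF ligands, 2 activin subunits, 7 type I and 4 type II receptors, 1 co-receptor, 5 secreted antagonists and binding proteins, 3 latent TGF-β binding proteins, the proteinase Bmp1, 5 receptor-regulated Smads, the common Smad4, 2 inhibitory Smads and 4 Id genes. Ligands of this family bind pairs of type I and type II receptors on the cell surface, and the type I receptor phosphorylates receptor-regulated Smads, which enter the nucleus with Smad4. TGF-β and activins act mainly through Smad2 and Smad3, BMPs through Smad1, Smad5 and Smad9, and secreted antagonists such as gremlin, noggin and follistatin bind ligands before they reach a receptor. In adipose tissue, TGF-β and activin signalling are known to restrain adipogenesis and thermogenic genes, while BMP4 and BMP7 are known to promote commitment of precursors to white and brown fat.

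RNA was sequenced from preadipocytes cultured from the inguinal fat (iWAT) and from mouse embryonic fibroblasts (MEFs) of C57BL/6 mice, wild type (WT) or carrying the double knockout (DKO) of Hmgn1 and Hmgn2, which encode nucleosome-binding HMGN proteins. Preadipocytes were sampled at days 0, 3, 6 and 9 and MEFs at days 0, 4, 8 and 12 of the same conversion to brown-like adipocytes, with 3 libraries in each of the 16 groups and 48 in all. From 2 days after confluency, cells of both genotypes received rosiglitazone at 1 μM, T3 at 1 nM, IBMX at 0.5 mM, dexamethasone at 5 μM and insulin at 0.5 μg/ml, for 4 days in preadipocytes and 8 days in MEFs, and then insulin and T3 alone for 4 days. The study describes its data as from 3 biological replicates. The labels number the 3 libraries of a group without saying whether they came from separate animals. P-values therefore measure the spread between these libraries, which may be partly technical. DKO cells came from mice and embryos lacking both genes.

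Counts per library ranged from 19809397 to 36006696 in preadipocytes and from 18962483 to 33083213 in MEFs. Hmgn2 had 0 to 10 counts in DKO preadipocytes and 0 to 3 in DKO MEFs, and at least 744 and 1046 in the WT libraries, whereas Hmgn1 kept 1571 to 3160 counts in DKO preadipocytes against 1542 to 5184 in WT, and 1748 to 3493 in DKO MEFs against 2457 to 6120 in WT. Scaled to library size, Hmgn1 had 69.7 to 114.2 CPM in DKO and 115.7 to 217.7 CPM in WT MEFs, without overlap. It had 73.7 to 97.7 CPM in DKO and 77.0 to 170.7 CPM in WT preadipocytes, which overlapped. The study's methods report that DKO cells lack transcripts of the deleted exons and both HMGN proteins. Counts per gene do not separate deleted from other exons. All libraries held counts of fibroblast markers (Pdgfra at 334.4 CPM, counts scaled to library size, or more in day 0 preadipocytes and 525.3 or more in day 0 MEFs), and Adipoq, which encodes adiponectin, was at most 2.98 CPM at day 0 and at least 792.5 CPM at the last day. The macrophage markers Ptprc, Adgre1 and Csf1r were also present, at means of 118.9, 332.6 and 470.5 CPM in WT MEFs at day 0 and of 32.3, 137.5 and 336.6 CPM in WT preadipocytes at day 6, so RNA of more than one cell type may be present. In bulk RNA, fewer cells of a type and less RNA per cell cannot be told apart. Some MEF libraries stood apart from the others of their group. WT replicate 2 of day 8 had 4195 CPM summed over 7 adipocyte markers against 10170 and 9896 in the other libraries, and 8298 CPM of 7 macrophage markers against 4328 and 4273. DKO replicate 3 of day 8 likewise had 4779 CPM of adipocyte markers against 17480 and 13410, and WT replicate 1 of day 4 had 6551 against 2214 and 2086. Between replicates of MEFs the chi-square per degree of freedom was 2.18 to 3.58 in WT and 3.01 to 12.6 in DKO libraries at day 12, against 3.33 to 19.5 in WT and 106.8 to 168.2 in DKO libraries at day 0.

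Of the 50 members, 47 passed edgeR's filter on low counts in the preadipocyte course and 49 in the MEF course. Bmp8b passed in neither, reaching at most 10 counts in a preadipocyte and 2 in a MEF library, and since Bmp8a is its near-identical copy the counts of both are uncertain. Bmp5 and Bmp7 passed only in MEFs. Exons of Bmp5 share 46.7% and those of Gdf5 40.3% of their bases with a gene on the other strand, and the use of strand in counting is not given in the sources used here, so their values may hold reads of those genes.

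Before differentiation, secreted proteins were among the most abundant members per length. Scaled to exon length, Fstl1, a secreted glycoprotein of the follistatin family, had the highest level in WT preadipocytes (423.9 ± 17.2 CPM per kb, SD, n = 3), followed by the BMP antagonist Grem1 (145.1 ± 48.0), the latent TGF-β binding protein Ltbp2 (103.4 ± 46.2), the BMP target Id3 (58.3 ± 9.06) and the activin βA subunit Inhba (55.1 ± 12.7). The libraries of Grem1 and Ltbp2 overlapped (104.0 to 197.8 and 60.9 to 152.7 CPM per kb), as did those of Id3 and Inhba. In WT MEFs, Fstl1 was also first (558.6 ± 55.1 CPM per kb), ahead of Ltbp2 (68.2 ± 5.35), the type II TGF-β receptor Tgfbr2 (64.6 ± 2.88), Id3 (43.8 ± 8.85) and the co-receptor Tgfbr3 (40.7 ± 0.958). At day 9 in WT preadipocytes Fstl1 remained first at 127.6 ± 10.6 CPM per kb and Tgfbr2 was second at 76.6 ± 1.67, and its libraries overlapped those of no other member.

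In WT preadipocytes more members were called lower than higher against day 0 at days 6 and 9, and at day 3 slightly more were called higher. Against day 0, edgeR's quasi-likelihood test (Benjamini-Hochberg adjusted over all genes tested) called 14 of the 47 tested members at day 3 (8 higher and 6 lower), 35 at day 6 (9 higher and 26 lower) and 30 at day 9 (9 higher and 21 lower), where a call needs a fold change of 1.5 or more with an adjusted p-value below 0.05. Over all 16877 genes tested, the percentage called was 23.2 at day 3, 52.1 at day 6 and 51.8 at day 9, with 10.4, 24.3 and 25.2 higher and 12.8, 27.8 and 26.5 lower. The median log2 fold change of the members was 0.07, -0.74 and -0.61 at these days, against 0.0004, -0.03 and -0.02 for all genes tested. The 3 comparisons share the day 0 libraries. Summed over 7 macrophage markers, WT preadipocytes had 129 to 456.1 CPM at day 0 and 6308 to 10420 CPM at day 6. Their 7 adipocyte markers went from 146.4 to 416.8 CPM at day 0 to 22310 to 26710 CPM at day 6. The part of such cell types in the changes over time was not tested.

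**Figure D1:**
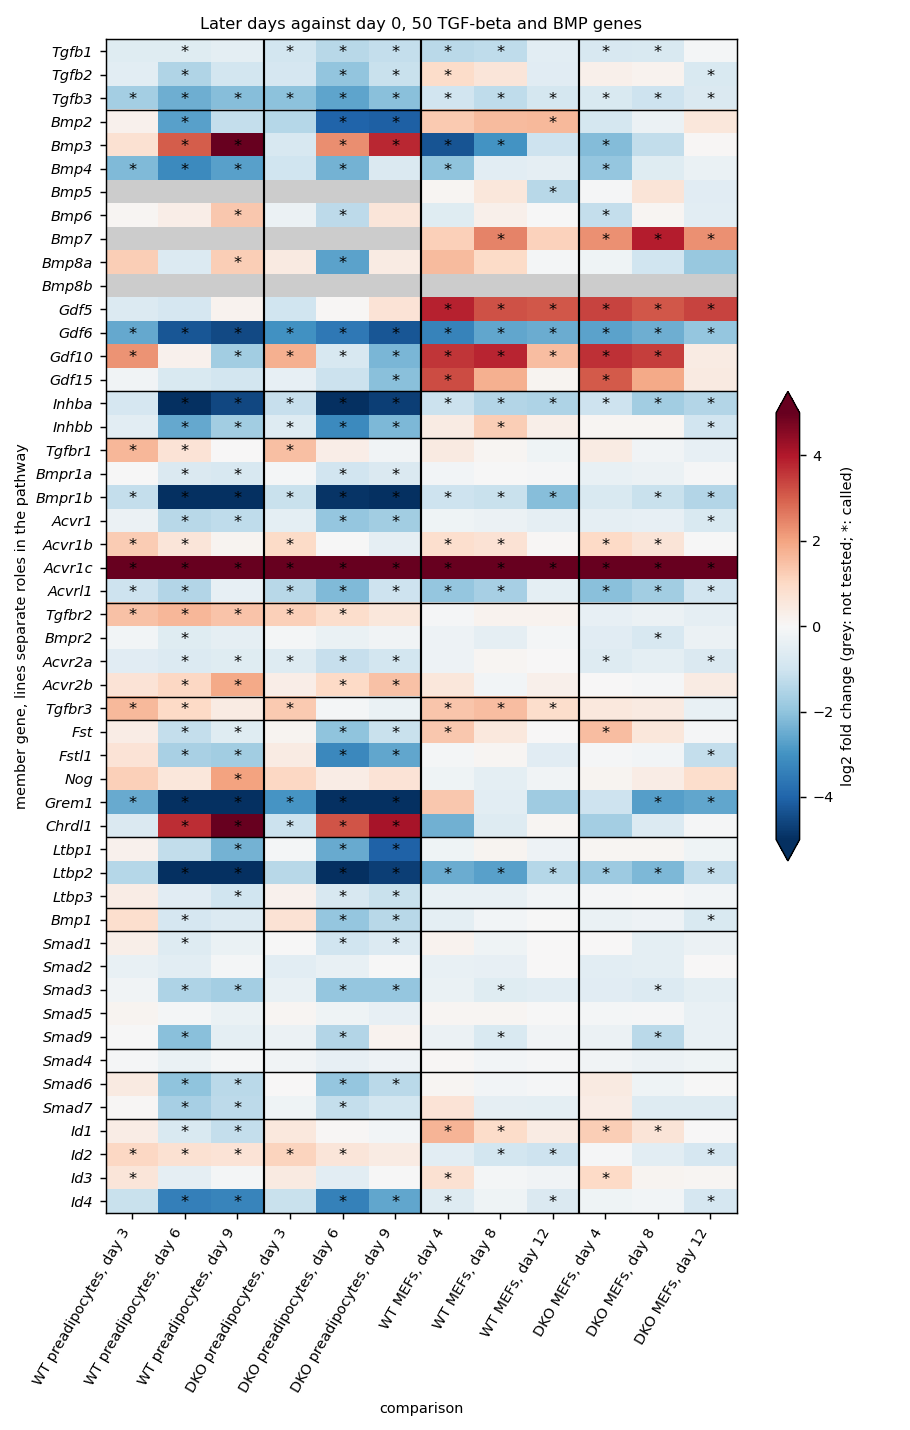
Log2 fold change of each member (rows, in the order of the roles given in the text) at each later day against day 0, by genotype and cell type (columns). Colours run from -5 (blue) to 5 (red) and larger values are drawn at the ends of the scale, grey marks members not tested and stars mark called members. In preadipocytes 26 of 47 members were called lower at day 6 in WT cells and 29 in DKO cells (27.8% and 30.7% of all genes). In MEFs 13 to 20 of 49 members were called at each day in each genotype (24% to 31.6% of all genes).

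At chr2:58267453-58357895 (mm10), Acvr1c, which encodes ALK7, the type I receptor for activin B and GDF3 in adipocytes, rose most. Its WT preadipocyte libraries held 0 counts at day 0, then 0.309, 1.71 and 2.01 CPM at day 3, 54.0, 61.1 and 52.9 at day 6, and 67.1, 73.3 and 76.7 at day 9. Every library of days 3 and 6 was above day 0, and at day 9 lack of overlap was a condition for naming the gene. Summed over the group, its counts were at least 33.3-fold higher at day 3, 1192-fold at day 6 and 1497-fold at day 9 than a floor of 3 counts per group (adjusted p = 3.15e-11 at day 9, edgeR's test). In WT MEFs Acvr1c had 0.105, 0 and 0.124 CPM at day 0 and 42.0, 44.4 and 44.0 CPM at day 12 (adjusted p = 0.00011, same test). The ratio of the summed counts was 520.7, with an interval of 239.2 to 1419 for the counting error of the 6 counts at day 0. Such intervals and floors cover counting error only.

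Chrdl1, encoding the BMP antagonist chordin-like 1, also rose in WT preadipocytes. It had 0.614, 0.566 and 1.07 CPM at day 0, 0.265, 0.427 and 0.626 at day 3, 10.4, 9.67 and 8.68 at day 6, and 24.9, 24.2 and 28.0 at day 9, a log2 fold change of 5.10 ± 0.35 (SE) between days 0 and 9 (adjusted p = 2.26e-10, edgeR). The day 3 libraries lay at or below the range of day 0 in 2 of 3 cases, and the rise came between days 3 and 6. Bmp3, a ligand of the family known as an atypical BMP, went from 0.286, 0.218 and 0.140 CPM at day 0 to 1.62, 2.04 and 1.78 at day 6 and 6.54, 7.35 and 8.19 at day 9 (log2 fold change 5.05 ± 0.51, adjusted p = 4.64e-08, edgeR). Nog, which encodes the BMP antagonist noggin, was called higher at day 9 (2.02 ± 0.69, adjusted p = 0.0141, edgeR) but from 0, 0.174 and 0.140 CPM to only 0.523, 0.435 and 0.335 CPM, and the call was lost without WT replicate 1 of day 0 (adjusted p = 0.0582).

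The steepest falls in WT preadipocytes were those of a BMP receptor, a BMP antagonist, a latent TGF-β binding protein and an activin subunit. Bmpr1b, encoding a type I BMP receptor, had 26.2, 38.3 and 22.6 CPM at day 0, 17.5, 13.8 and 7.14 at day 3, 0.977, 0.655 and 0.888 at day 6 and 0.889, 0.522 and 0.335 at day 9 (log2 fold change -5.65 ± 0.48, adjusted p = 5.88e-09, edgeR). Grem1 had 554, 821 and 431 CPM at day 0, 1.65, 2.50 and 3.35 at day 6, and 12.03, 13.4 and 12.5 at day 9, so it was lowest at day 6 and all day 9 libraries were above those of day 6 (day 9 against day 0: -5.57 ± 0.57, adjusted p = 9.22e-08, edgeR). Ltbp2, an extracellular matrix protein, had 499, 1249 and 791 CPM at day 0, 7.93, 11.98 and 9.04 at day 6 and 27.7, 22.2 and 24.96 at day 9 (-5.08 ± 0.68, adjusted p = 2.56e-06, edgeR). Inhba had 351, 434 and 272 CPM at day 0, 11.8, 6.78 and 5.85 at day 6 and 22.1, 11.3 and 12.4 at day 9 (-4.53 ± 0.51, adjusted p = 2.72e-07, edgeR). Lack of overlap between the libraries of days 0 and 9 was a condition for naming these 4 genes, so it is not a result. Their libraries of days 0 and 6 did not overlap either.

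Promoter sequences are shown for the member with the steepest rise and for a pair of those with the steepest falls, from 250 bases before to 50 bases after the start site (RefSeq, GRCm38.p6, written 5′ to 3′ on the strand of the gene). Of the 50 members, 34 had an entry, and Chrdl1 had none. Capitals mark matches on either strand to AGGTCA (the hexamer that PPARγ and RXR bind), CAGAC (a Smad box), GGCGCC (a GC element of BMP-responsive genes), TGANTCA (AP-1) and TTGCNNCAA (C/EBP), some of which can overlap. The first Acvr1c start site lies at chr2:58357709-58358008 (minus strand), Grem1 at chr2:113758599-113758898 (minus strand) and Inhba at chr13:16011601-16011900 (plus strand).
Acvr1c: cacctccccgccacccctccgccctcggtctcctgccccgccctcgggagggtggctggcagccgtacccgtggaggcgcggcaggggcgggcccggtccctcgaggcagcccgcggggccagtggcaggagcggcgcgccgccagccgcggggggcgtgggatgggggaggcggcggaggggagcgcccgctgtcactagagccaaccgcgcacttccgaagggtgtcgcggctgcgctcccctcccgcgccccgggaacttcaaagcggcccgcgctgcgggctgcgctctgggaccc
Grem1: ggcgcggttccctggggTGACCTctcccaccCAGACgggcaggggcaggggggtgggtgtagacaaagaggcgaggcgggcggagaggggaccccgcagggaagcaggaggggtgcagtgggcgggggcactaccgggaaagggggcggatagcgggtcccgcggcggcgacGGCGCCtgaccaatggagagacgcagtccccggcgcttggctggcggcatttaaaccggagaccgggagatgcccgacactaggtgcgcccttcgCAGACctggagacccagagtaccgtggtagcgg
Inhba: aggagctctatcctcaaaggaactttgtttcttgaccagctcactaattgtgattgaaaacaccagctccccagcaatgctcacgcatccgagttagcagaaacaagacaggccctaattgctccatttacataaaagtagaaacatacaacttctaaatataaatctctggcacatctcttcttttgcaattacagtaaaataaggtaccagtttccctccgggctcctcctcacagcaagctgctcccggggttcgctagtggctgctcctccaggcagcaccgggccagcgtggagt
The windows of Acvr1c and Inhba held no match to these letters, and that of Grem1 held 4, of which 1 was AGGTCA, 2 were CAGAC and 1 was GGCGCC. Over 32851 promoter windows of the same length, 16.3% held AGGTCA, 49.6% CAGAC, 11.9% GGCGCC, 7.81% TGANTCA and 2.08% TTGCNNCAA. A match is a description of the letters and not a bound site, and no match says nothing of the factor.

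Receptors of both types included members called higher and members called lower in WT preadipocytes. Among type II receptors, Tgfbr2 was higher at each later day (log2 fold changes 1.46, 1.67 and 1.42 at days 3, 6 and 9) and the activin receptor Acvr2b at days 6 and 9 (1.05 and 1.91), while Acvr2a was lower at both (-0.67 and -0.59). Tgfbr1 and Acvr1b, the type I receptors for TGF-β and activin, were called higher at days 3 and 6 and not at day 9, where their log2 fold changes were 0.01 and 0.14. The BMP type I receptors Bmpr1a (-0.79) and Acvr1 (-1.25) were lower at day 9. Of the 5 receptor-regulated Smads only Smad3, which carries TGF-β and activin signals, was called at day 9 (-1.69). The inhibitory Smad6 and Smad7, both feedback targets of the pathway, were lower at days 6 and 9 (-1.34 and -1.30 at day 9), and so were the BMP targets Id1 (-1.19) and Id4 (-3.31), while Id2, a regulator that adipocytes use, was higher at all 3 days (0.69 at day 9). Smad2, Smad4 and Smad5 were not called at any day in either genotype.

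Gdf10, which encodes the ligand BMP3b, an inhibitor of adipogenesis, was highest at day 3. It had 98.4, 88.3 and 248 CPM at day 0 and 542, 652 and 844 at day 3, then 169, 166 and 175 at day 6 and 45.2, 40.1 and 46.4 at day 9. It was called higher at day 3 (2.23) and lower at day 9 (-1.72) against day 0. The co-receptor Tgfbr3 was called higher at days 3 and 6 (1.61 and 0.99), and Tgfb3 was lower throughout (-1.71, -2.43 and -2.13). Both activin subunits fell by day 9, Inhbb by 1.73 on the log2 scale.

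**Figure D2:**
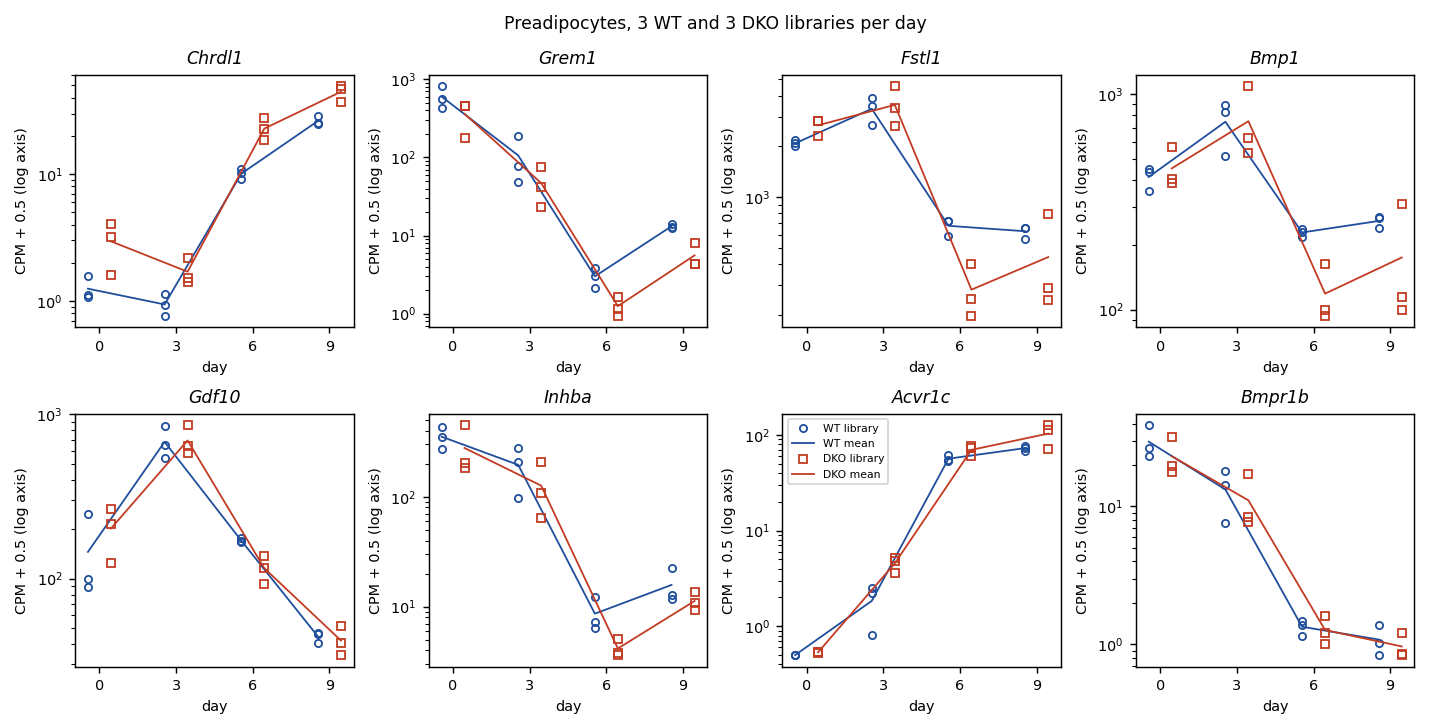
CPM + 0.5 (vertical log axis) of 8 members in each WT (circles) and DKO (squares) preadipocyte library by day (horizontal axis), with lines through the group means. Chrdl1 and Acvr1c rise and Grem1, Inhba and Bmpr1b fall in both genotypes, the DKO libraries of Chrdl1 lie above the WT libraries at days 6 and 9, and the day 6 DKO libraries of Grem1, Fstl1 and Bmp1 lie below the WT libraries.

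In WT MEFs fewer members were called at days 8 and 12 than at days 6 and 9 in WT preadipocytes. Against day 0, 20 of 49 tested members were called at day 4 (10 higher and 10 lower), 19 at day 8 (8 and 11) and 13 at day 12 (5 and 8), against 31.6%, 27.7% and 24% of all 16996 genes (14%, 12.1% and 13.4% higher and 17.7%, 15.6% and 10.6% lower). With scaling by library size alone the day 12 split was 4 higher and 15 lower. That scaling would move all genes by -0.147 (log2) there, and by -0.268 to 0.126 over the 12 comparisons with day 0. After Acvr1c, the largest rises at day 12 were those of the ligands Gdf5, from 0.0350, 0.0750 and 0.165 to 0.542, 0.581 and 1.28 CPM (log2 fold change 3.09 ± 0.73, adjusted p = 0.00234, edgeR), and Bmp2, from 0.105, 0.302 and 0.206 to 0.739, 0.654 and 0.528 CPM (1.63 ± 0.63, adjusted p = 0.0493, edgeR). The Bmp2 call was lost in each of the 6 refits without 1 library, and both genes stayed close to 1 CPM or below it. Gdf10 rose from 14.6, 13.2 and 14.4 CPM at day 0 to 166, 159 and 174 at day 4 and 224, 148 and 225 at day 8, and was 43.9, 37.0 and 42.6 at day 12 (1.55 ± 0.25, adjusted p = 9.3e-05, edgeR).

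Members called lower at day 12 in WT MEFs included a ligand, a receptor, an activin subunit and a latent TGF-β binding protein. Gdf6, a BMP-family ligand, went from 12.5, 5.70 and 10.3 to 1.63, 1.38 and 2.07 CPM at day 12 (-2.49 ± 0.44, adjusted p = 0.000182, edgeR). Bmpr1b went from 4.66, 3.43 and 3.38 to 1.13, 0.472 and 1.01 CPM (-2.14 ± 0.37, adjusted p = 0.000171, edgeR). Inhba went from 93.0, 80.8 and 82.7 to 29.1, 27.6 and 32.4 CPM (-1.53 ± 0.36, adjusted p = 0.00268, edgeR). Ltbp2 went from 568, 510.0 and 596 to 202, 211 and 205 CPM (-1.44 ± 0.22, adjusted p = 6.01e-05, edgeR). Lack of overlap between the libraries of days 0 and 12 was a condition for naming these genes, so it is not a result. In preadipocytes the log2 fold changes of the same genes at day 9 were -4.51, -5.65, -4.53 and -5.08, and the difference between cell types was not tested. Chrdl1 was not called at any day in WT MEFs (log2 fold changes of -2.40, -0.64 and 0.12 at days 4, 8 and 12). Without WT replicate 1 of day 4 it was called lower at day 4 (-3.97 ± 1.21, adjusted p = 0.0126, edgeR). Bmp3 fell at days 4 and 8 (-4.34 and -2.97) with -1.02 at day 12.

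Several members were called in WT MEFs at day 4 and not at day 12. Higher at day 4 were Tgfb2 (log2 fold change 0.92), the stress-induced ligand Gdf15 (3.27), Fst (1.36), Acvr1b (0.83), Id1 (1.69) and Id3 (0.76), and lower were Tgfb1 (-1.34), Bmp4 (-2.01) and Acvrl1 (-1.95). Bmp7 was called higher in WT MEFs at day 8 (2.47) and in DKO MEFs at days 4, 8 and 12 (2.30, 3.91 and 2.30). The co-receptor Tgfbr3 was higher at all 3 days in WT MEFs (0.90 at day 12) and at none in DKO MEFs (-0.36 at day 12), without a called difference between the genotypes' courses. DKO replicate 2 of day 0 had 799.5 CPM of Tgfbr3 against 303.5 and 522.6. Without it Tgfbr3 was called higher in DKO MEFs at days 4 and 8 (0.93 and 0.85). Without DKO replicate 1 of day 0 it was called lower at day 12 (-0.64).

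The MEF libraries that stood apart in their adipocyte markers stood apart in members as well. At day 8 WT replicate 2 had 4.98 CPM of Chrdl1 against 81.1 and 79.2, and 1.44 CPM of Acvr1c against 16.7 and 14.5. DKO replicate 3 of day 8 had 4.03 CPM of Chrdl1 against 59.7 and 43.1 and 2.44 CPM of Acvr1c against 27.0 and 16.1. At day 4 WT replicate 1 had 37.1 CPM of Chrdl1 against 5.36 and 5.599, and at day 0 DKO replicate 2 had 7.99 against 107 and 58.8. Without WT replicate 1 of day 4, 24 members were called in WT MEFs at day 4 in place of 20 (31.8% of all genes). Chrdl1, Grem1, Bmp1 and Smad7 were among them, and Acvr1c was not. Without WT replicate 2 of day 8, 18 were called at day 8 in place of 19 (27.6% of all genes). In DKO MEFs at day 8, 19 were called without DKO replicate 3 of day 8 and 21 without DKO replicate 2 of day 0, in place of 17 (30.8% and 31% of all genes). Without any single library of days 0 or 12, 11 to 14 members were called in WT MEFs at day 12.

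**Figure D3:**
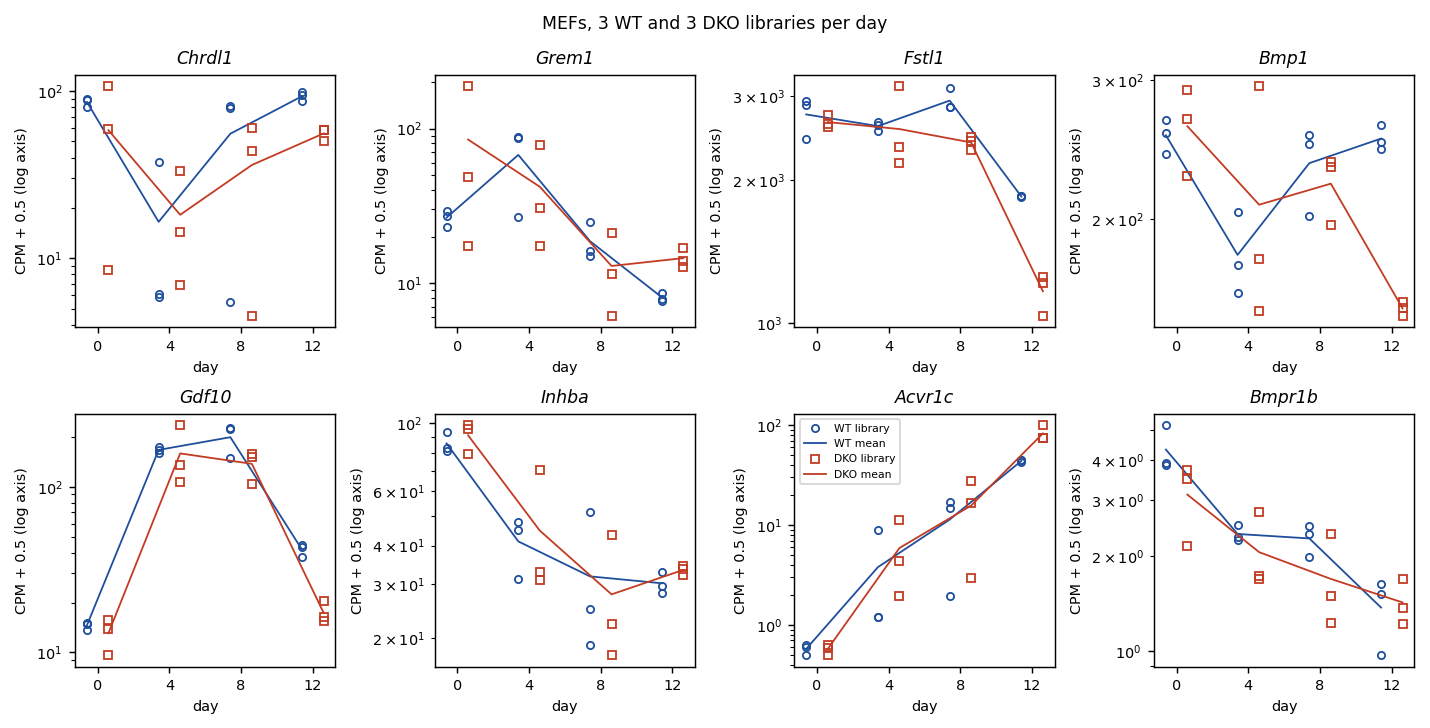
CPM + 0.5 (vertical log axis) of the same 8 members in each WT (circles) and DKO (squares) MEF library by day (horizontal axis), with lines through the group means. The libraries of Chrdl1, Grem1 and Acvr1c spread widely within groups at days 0, 4 or 8 and closely at day 12, where the WT and DKO libraries of Chrdl1, Grem1, Fstl1, Bmp1, Gdf10 and Acvr1c do not overlap.

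DKO cells went through the same comparisons with their own day 0. In DKO preadipocytes 17 of 47 members were called at day 3 (7 higher and 10 lower, with 12.5% and 15.9% of all genes, 28.4% in all), 35 at day 6 (6 and 29, with 27.1% and 30.7%, 57.8% in all) and 29 at day 9 (4 and 25, with 27% and 29.5%, 56.4% in all). In DKO MEFs 19 of 49 were called at day 4 (9 and 10, with 12.3% and 16%, 28.3% in all), 17 at day 8 (6 and 11, with 13.2% and 15.9%, 29.1% in all) and 18 at day 12 (3 and 15, with 15.5% and 12.8%, 28.3% in all). Acvr1c had 3 counts over the DKO preadipocyte libraries of day 0 and was 2533-fold higher at day 9 (counting interval 866.6 to 12280). Tests of the difference itself, the DKO effect of a later day against that of day 0, called 0 of the 47 members at days 3, 6 and 9 in preadipocytes and 0 of 49 at days 4, 8 and 12 in MEFs with edgeR. At an unadjusted p-value under 0.05 there were 0, 12 and 6 members in preadipocytes and 9, 9 and 9 in MEFs. The share of all genes at that threshold was not counted. With the adjusted p-value, 0.0948%, 5.02% and 0.711% of all genes were called in preadipocytes and 0.00588%, 0% and 0.0353% in MEFs. DESeq2 called 4 members at day 6 in preadipocytes and 1 and 4 at days 8 and 12 in MEFs, all lower. Over all genes DESeq2 called 1606 at day 6 in preadipocytes and 22 and 143 at days 8 and 12 in MEFs.

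DKO and WT preadipocytes had no called member at days 0 and 3, and at day 6 the called members were 3 ligands, both activin subunits, 4 secreted antagonists and binding proteins, a receptor and the proteinase Bmp1. All of them but Chrdl1 were lower in DKO cells. At day 0 edgeR's test called 0 of 43 tested members (2 at an unadjusted p-value under 0.05), with 0.218% of all 15123 genes called, and at day 3 it called 0 of 42 (4 unadjusted), with 0.337% of 15119 called. DESeq2 called 0 members at both days, and 1 fit over the libraries of all days called 1 member, higher, at each (90 and 396 of all genes). At day 6 edgeR's test called 11 of 42 members, 1 higher and 10 lower, where 11.6% of 14694 genes were called (5.03% higher and 6.53% lower). The median log2 fold change of the members tested was -0.20, against -0.01 for all genes, and DKO and WT libraries did not overlap for 17 of the 42 members and 43% of all genes. At day 9 there were 2 of 45 members called, both higher, with 1.24% of 14700 genes called (0.469% higher).

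**Figure D4:**
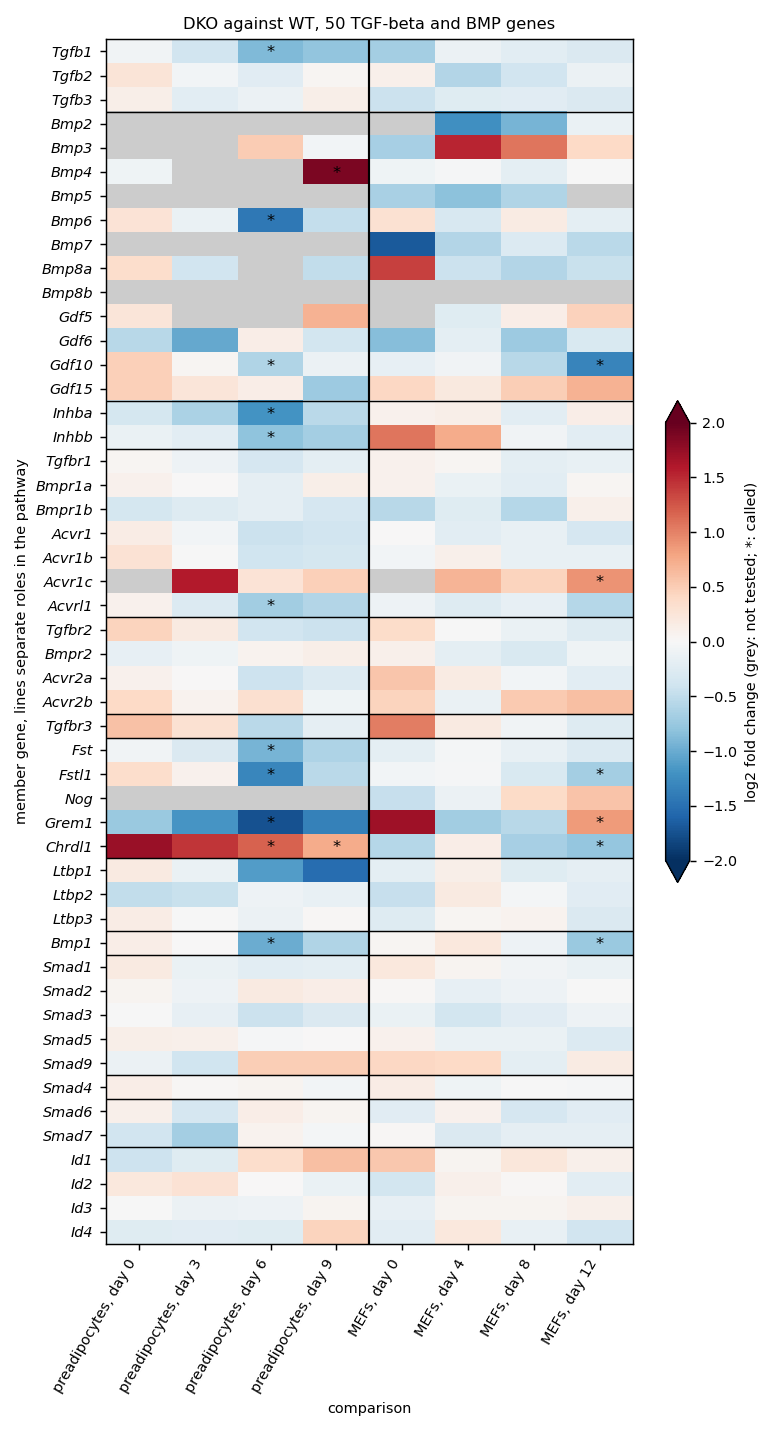
Log2 fold change of DKO against WT for each member (rows, ordered by role) at each day of each cell type (columns). Colours run from -2 (blue) to 2 (red), grey marks members not tested and stars mark called members. The called members are in preadipocytes at days 6 (11) and 9 (2) and in MEFs at day 12 (6), and Chrdl1 and Grem1 have opposite signs in the last days of the cell types.

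Of the 10 lower members, 3 were antagonists and binding proteins (Fstl1, Fst and Grem1) and 1 was the proteinase Bmp1. Fstl1 had 249.97, 399 and 197 CPM in the DKO libraries and 723, 585 and 718 in the WT libraries of day 6 (log2 fold change -1.30 ± 0.25, adjusted p = 0.0142, edgeR). Bmp1, a proteinase that processes procollagens and also cleaves the BMP antagonist chordin, had 99.5, 162 and 93.2 CPM against 218, 229 and 237 (-0.99 ± 0.19, adjusted p = 0.0147, edgeR). Fst, encoding the activin antagonist follistatin, had 31.5, 29.0 and 27.2 CPM against 70.2, 41.3 and 50.5 (-0.92 ± 0.20, adjusted p = 0.0193, edgeR). In each of these the highest DKO library was below the lowest WT library, and DKO replicate 2 was the DKO library nearest to WT for Fstl1 and Bmp1. Grem1, already low at day 6, had 1.14, 0.440 and 0.661 CPM in DKO against 1.65, 2.50 and 3.35 in WT libraries (-1.75 ± 0.39, adjusted p = 0.0179, edgeR).

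Of the ligands tested at day 6, 1 of 3 TGF-β ligands and 2 of 5 BMP and GDF ligands were called lower, as were both activin subunits, and none was called higher. Tgfb1, the main TGF-β ligand, had 13.7, 8.69 and 10.7 CPM in DKO and 15.5, 23.3 and 21.4 in WT libraries (-0.89 ± 0.21, adjusted p = 0.0235, edgeR). Inhbb, the activin βB subunit, had 9.23, 8.85 and 9.69 against 17.4, 13.2 and 16.8 (-0.81 ± 0.14, adjusted p = 0.00749, edgeR). Inhba had 3.29, 4.56 and 3.13 against 11.8, 6.78 and 5.85 (-1.20 ± 0.29, adjusted p = 0.0253, edgeR). Bmp6, a BMP ligand known for its control of iron metabolism, had 0.685, 1.81 and 1.06 CPM against 2.52, 3.12 and 3.63 (-1.44 ± 0.33, adjusted p = 0.019, edgeR). Gdf10 had 116, 138 and 92.4 CPM against 169, 166 and 175 (-0.60 ± 0.13, adjusted p = 0.0158, edgeR). Acvrl1, the endothelial type I receptor ALK1, had 17.3, 18.7 and 10.7 against 22.2, 28.7 and 22.7 (-0.70 ± 0.20, adjusted p = 0.0495, edgeR). No DKO library of these 6 genes reached the lowest WT library.

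Chrdl1 moved the other way. It had 17.9, 22.04 and 26.9 CPM in DKO and 10.4, 9.67 and 8.68 CPM in WT libraries at day 6 (1.19 ± 0.16, adjusted p = 0.00404, edgeR). It had 48.9, 36.8 and 46.4 against 24.9, 24.2 and 28.0 at day 9 (0.74 ± 0.12, adjusted p = 0.0424, edgeR). At all 4 days every DKO library was above every WT library, with log2 fold changes of 1.72 and 1.43 at days 0 and 3 that were not called, at levels of at most 3.54 CPM. Bmp4, the ligand that commits precursors to the adipocyte lineage, was the other member called higher at day 9, at 0.529, 0.622 and 0.519 CPM against 0.157, 0.130 and 0.144 (1.89 ± 0.34, adjusted p = 0.0475, edgeR), a level well under 1 CPM.

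These calls depended on single libraries. At day 6, leaving out WT replicate 3 left 3 members called (Inhba, Inhbb and Chrdl1; 4.82% of all genes) and leaving out DKO replicate 3 left 4 (Inhbb, Fstl1, Chrdl1 and Bmp1; 5.9% of all genes), whereas the other 4 refits called 10 or 11; Inhbb and Chrdl1 were called in all 6. At day 9 both calls were lost in 5 of 6 refits, 1 of which called Grem1 lower, and without DKO replicate 2, 12 of 45 were called (3 higher and 9 lower), with 9.72% of 15019 genes called. That library stood apart from the other DKO libraries of day 9. It had 790 CPM of Fstl1 against 287 and 245, 309 CPM of Bmp1 against 114 and 99.3, and 31.4 CPM of Inhbb against 9.85 and 12.3, and for all 3 genes it lay above the WT libraries. Without it the log2 fold changes at day 9 were -1.27 for Fstl1, -1.30 for Bmp1 and -1.37 for Inhbb (adjusted p = 0.00135, 0.000692 and 0.00127, edgeR). With the same-numbered libraries as a block 0 members were called at day 9.

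Markers of other cell types differed between genotypes at these days. At day 6 the summed level of the 7 adipocyte markers was 22310 to 26710 CPM in WT and 29220 to 36200 CPM in DKO libraries, that of the 7 preadipocyte and fibroblast markers 898.9 to 1230 against 393.4 to 702.0, and that of the 7 macrophage markers 6308 to 10420 against 2144 to 4959, with none of the 21 markers at 0. At day 9 the macrophage markers summed to 2910 to 6370 CPM in WT and 1350 to 3089 CPM in DKO libraries, and the adipocyte markers to 27910 to 29070 against 36080 to 42880. The preadipocyte and fibroblast markers summed to 1022 to 1358 CPM in WT libraries of day 9. In the DKO libraries they summed to 1269 CPM in replicate 2 against 753.1 and 546.6. The part of these cell types in the differences of Fstl1, Tgfb1, Inhba and the other members was not tested.

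In MEFs, members were called between DKO and WT at day 12 and none at days 0, 4 and 8. The DKO effect of a later day against that of day 0 was called for 0 of 49 members, so a difference between days was not shown. Log2 fold changes were negative for 38 of 49 members at day 8 and 35 of 48 at day 12. The share of all genes with a negative value was not counted, so these counts do not set the members apart. The chi-square per degree of freedom between replicates reached 168.2, 85.8 and 157.3 at days 0, 4 and 8 and 12.6 at day 12. The part of this spread in the calls was not tested. At days 0, 4 and 8 edgeR's test called 0 of 46, 49 and 49 members (6, 2 and 4 at an unadjusted p-value under 0.05, and 0 by DESeq2), with 0.102%, 0.0905% and 0.0595% of all genes called. Without DKO replicate 1 of day 0, 3 members were called at day 0 (Inhbb and Tgfbr3 higher and Tgfb1 lower), with 3.28% of 16112 genes called. At day 12, 6 of 48 members were called, 2 higher and 4 lower, where 7.98% of 15319 genes were called (3.92% higher and 4.05% lower). Without the fold threshold 19 members and 5062 of all genes were called. At an unadjusted p-value under 0.05 there were 26 members, and the share of all genes at that threshold was not counted. The libraries did not overlap for 25 of the 48 members and for 47% of all genes, and the median log2 fold change was -0.18 against 0.0015 for all genes.

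Fstl1, Bmp1 and Gdf10 were lower in DKO MEFs at day 12, as they were in DKO preadipocytes at day 6. Fstl1 had 1212, 1037 and 1253 CPM in DKO and 1851, 1837 and 1849 in WT libraries (log2 fold change -0.68 ± 0.06, adjusted p = 7.59e-07, edgeR). Bmp1 had 156, 150.1 and 154 against 263, 245 and 249.95 (-0.74 ± 0.04, adjusted p = 4.51e-09, edgeR). Gdf10 had 15.8, 14.9 and 19.8 CPM against 43.9, 37.0 and 42.6 (-1.31 ± 0.10, adjusted p = 3.41e-07, edgeR). Acvr1c was higher, with 73.9, 99.2 and 73.6 CPM in DKO and 42.0, 44.4 and 44.0 in WT libraries (0.89 ± 0.13, adjusted p = 0.0021, edgeR). In DKO preadipocytes Acvr1c had log2 fold changes of 0.27 at day 6 and 0.47 at day 9 that were not called.

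Chrdl1 and Grem1 had opposite signs to those in preadipocytes. Chrdl1 had 58.1, 49.95 and 57.8 CPM in DKO and 86.6, 93.6 and 97.8 in WT MEFs of day 12 (-0.77 ± 0.06, adjusted p = 3.92e-07, edgeR). Grem1 had 13.4, 16.5 and 12.1 against 7.19, 8.17 and 7.44 (0.85 ± 0.12, adjusted p = 5.88e-05, edgeR). The 6 calls were kept without each single library, but with 1 fit over the MEF libraries of all days those of Acvr1c, Chrdl1 and Grem1 were lost (adjusted p = 0.617, 0.744 and 0.565). At day 12 the adipocyte markers summed to 18650 to 19050 CPM in WT and 28420 to 29920 CPM in DKO libraries, the macrophage markers to 4963 to 5010 against 3235 to 3716, and the preadipocyte and fibroblast markers to 1943 to 2020 against 1376 to 1529, and their part in these results was not tested. At day 0 the DKO effect in preadipocytes against that in MEFs was called for 0 of 48 members (3 at an unadjusted p-value under 0.05; 0.0844% of 16581 genes called).

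Undifferentiated WT preadipocytes and MEFs differed in which ligands and antagonists they expressed. At day 0, 21 of 48 members were called, 12 higher and 9 lower in preadipocytes, where 35.4% of 16581 genes were called (16.9% higher and 18.5% lower). The 2 tables hold different cell types, sources and cultures, which cannot be told apart. Levels in this comparison were scaled over the 12 libraries of day 0. Scaled within each cell type, the 7 macrophage markers summed to 129 to 456.1 CPM in WT preadipocytes and 7030 to 8944 CPM in WT MEFs of day 0. Their part in these differences was not tested. Grem1 was the member furthest above MEFs, at 613, 902 and 475 CPM against 26.3, 22.2 and 28.2 (log2 fold change 4.70 ± 0.79, adjusted p = 0.000731, edgeR), followed by Gdf10 (3.53), Gdf15 (3.40), Inhbb (3.17), Bmpr1b (3.09) and Inhba (2.21). Inhba had 388, 477 and 299.7 CPM in preadipocytes and 91.4, 79.4 and 81.4 in MEFs, without overlap, and the follistatin gene Fst was also higher (1.74).

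Of 11 BMP and GDF ligands tested, 5 were lower in preadipocytes than in MEFs (Bmp3, Bmp4, Bmp5, Bmp6 and Bmp7) and 2 were higher (Gdf10 and Gdf15). Bmp4 had 0.272, 1.10 and 1.84 CPM in preadipocytes and 47.6, 27.4 and 50.5 in MEFs (-5.30 ± 0.63, adjusted p = 8.25e-05, edgeR). Bmp3 had 0.317, 0.239 and 0.154 against 27.3, 21.0 and 25.7 (-6.66 ± 0.84, adjusted p = 0.000123, edgeR), and Chrdl1 had 0.680, 0.623 and 1.179 against 87.2, 78.1 and 87.0 (-6.67 ± 0.91, adjusted p = 0.000211). Bmp7, which promotes brown fat differentiation, had 0 counts in the 3 preadipocyte libraries and 46 in the MEF libraries, at least 12.7-fold lower in preadipocytes than in MEFs against a floor of 3 counts per group. Nog (-3.95) and Bmp5 (-2.11) were also lower, and the Bmp5 call was lost in 4 of 6 refits without 1 library. Id1 (1.22), Smad6 (1.13) and Smad7 (1.02) were higher in preadipocytes, whereas Id2 (-1.86) and Tgfbr2 (-1.01) were lower, in both directions among the targets. The calls of Bmp6, Smad6 and Smad7 were each lost in 2 of 6 such refits and that of Gdf15 without WT replicate 2 of the MEFs (adjusted p = 0.0593). Those of Bmp6 and Gdf15 were also lost with limma-voom and quantile normalization (adjusted p = 0.0518 and 0.0611).

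**Figure D5:**
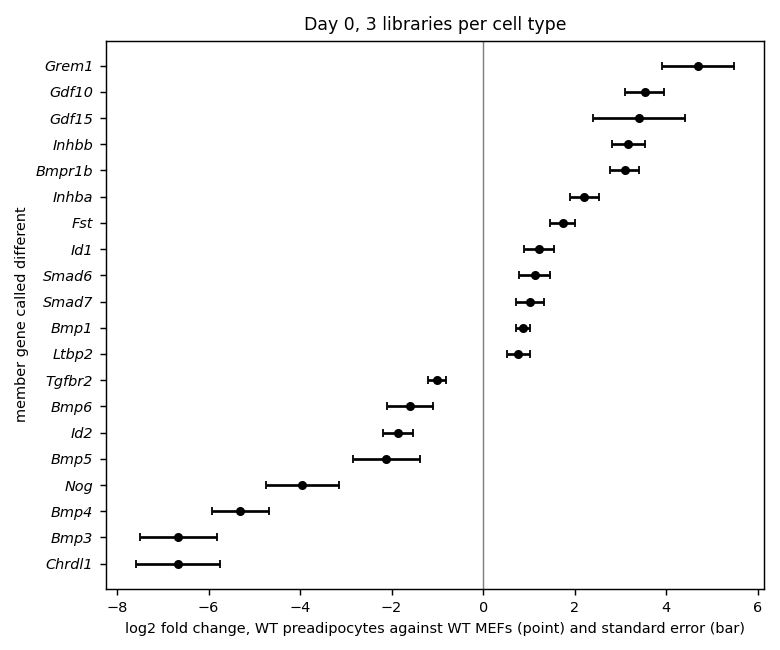
Log2 fold change of WT preadipocytes against WT MEFs at day 0 (horizontal axis, points) with standard error (bars) for the called members (vertical axis), leaving out Bmp7, which had 0 counts in preadipocytes. Grem1, Gdf10, Gdf15, Inhbb, Bmpr1b and Inhba lie above 2, and Chrdl1, Bmp3, Bmp4 and Nog lie below -3.

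Other genes of the pathways and known targets were counted beside the members. Of 78 further pathway genes, 55 were tested at day 6 in preadipocytes and 10 were called, 2 higher and 8 lower in DKO cells, or 18.2% against 11.6% of all genes. Those with the smallest adjusted p-values were the BMP-binding protein Bmper (-1.04 ± 0.12), fibrillin 1 (Fbn1, which holds latent TGF-β in the matrix, -0.91 ± 0.16) and Emilin1 (-0.74 ± 0.13), and higher were the Smad anchor Zfyve9 (0.65 ± 0.10) and Ltbp4 (0.69 ± 0.17) (adjusted p = 0.00302, 0.00878, 0.00912, 0.00521 and 0.0277, edgeR). At day 12 in MEFs 4 of 55 were called, all lower, and this share of 7.27% was close to the 7.98% of all genes. They included Bmper (-1.04 ± 0.07), the integrin Itgb8 (-1.03 ± 0.09) and the proteinase Tll1 (-0.60 ± 0.145) (adjusted p = 4.43e-08, 3.5e-07 and 0.00426, edgeR). None of these genes was called between genotypes at the other days.

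Genes known to be induced by TGF-β were called lower more often than higher at each day against day 0. Of 12 such genes, 9, 10 and 10 were called lower and 0 higher in WT preadipocytes at days 3, 6 and 9, and 10, 9 and 5 were lower in WT MEFs at days 4, 8 and 12, with 1 higher at day 12. Of all genes, 12.8%, 27.8% and 26.5% were called lower in preadipocytes and 17.7%, 15.6% and 10.6% in MEFs at these days. The median log2 fold changes of the 12 genes were -1.48, -2.44 and -1.64 in preadipocytes and -2.65, -1.45 and -0.82 in MEFs. Over all genes tested these medians lay between -0.03 and 0.04. In DKO preadipocytes at day 6, Col1a1 (462.6 against 1400 CPM, -1.63 ± 0.10), Postn (652.8 against 1750 CPM, -1.46 ± 0.20) and Loxl2 (-0.78 ± 0.12) were lower than in WT, 3 of 12, with 6.53% of all genes lower. In DKO MEFs at day 12, Cilp (-1.80 ± 0.10), Col1a1 (-0.59 ± 0.045), Postn (-0.59 ± 0.04) and Cnn1 (-0.98 ± 0.29) were lower, 4 of 12, with 4.05% of all genes lower. They encode collagen, matrix, crosslinking and contractile proteins typical of fibroblasts. Tgfbi was higher in DKO preadipocytes at day 0 (0.86 ± 0.08, adjusted p = 0.0177, edgeR). Of 10 BMP-induced genes, 4 of which are members, Hhex alone was called between genotypes, at day 6 in preadipocytes (-1.60 ± 0.36).

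With all libraries in the fit, the members in no DKO against WT call include all 4 type II receptors, Tgfbr3, the 3 latent TGF-β binding proteins, all 8 Smads and all 4 Id genes. Without single libraries some of them were called. They were Tgfbr3 and Ltbp1 at day 6 in preadipocytes without WT replicate 2 (12.1% of all genes called), and Ltbp1 also without DKO replicate 1 (12.6%). At day 9 they were Tgfbr2 and Ltbp2 without DKO replicate 2 (9.72%), and Tgfbr3 was called in MEFs at day 0 without DKO replicate 1 (3.28%). At day 6 in preadipocytes the median log2 fold change was -0.15 over the type II receptors, -0.03 over the receptor-regulated Smads and -0.05 over the Id genes. Ltbp1 had a log2 fold change of -1.11 at day 6 and -1.53 at day 9 without a call (adjusted p = 0.0714 and 0.0814, edgeR). A missed call at 3 libraries per group does not show that these levels were equal, and a call also needs a 1.5-fold change. In MEFs at day 12, 19 members were called without that threshold (3 higher and 16 lower), as were 5062 of all 15319 genes. There Tgfbr2 had 497, 512 and 512 CPM in DKO and 592, 604 and 600 in WT libraries. Smad5 had 95.2, 93.0 and 95.8 CPM against 114.4, 110.0 and 113.6.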

How the data were processed

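RNA-seq expected counts of 48 libraries were used, in 1 table for preadipocytes and 1 for MEFs. Per the labels the authors' processing used bcl2fastq 2.17, cutadapt 1.18, STAR 2.7.0f and RSEM 1.3.0 with mm10, and the deposited values are RSEM expected counts per gene, not normalized, of which 5.49% to 7.9% were not whole numbers in a library. The strand setting is not given in the sources used here. The labels give polyA RNA, whereas the study's methods describe a total RNA kit. Totals per library had medians of 23978863.5 in preadipocytes and 23901661.5 in MEFs.

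Expected counts were rounded and tested with edgeR 4.0.16 (R 4.3.3): filterByExpr, TMM scaling, and the robust quasi-likelihood test on all genes that passed, two-sided, with Benjamini-Hochberg adjustment over all of them. A gene was called when the adjusted p-value was below 0.05 and the fold change 1.5 or more, and an interaction at the adjusted p-value alone. Member counts at an unadjusted p-value under 0.05 have no share of all genes beside them, as that share was not counted. DKO and WT were compared within each day from the libraries of that day. Later days were compared with day 0, and the interactions fitted, over all libraries of a cell type. WT preadipocytes and WT MEFs of day 0 were compared over the 12 libraries of day 0. CPM values are TMM-scaled, and CPM per kb is divided by the exon length of GENCODE M21, to which all 55450 gene IDs matched. Standard errors are the log2 fold change divided by the square root of the F statistic.

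The members and lists were chosen with earlier results of these data known. Genes named with values in the comparisons of DKO and WT were the called members, up to 12 by smallest adjusted p-value. Those named over time were the 4 steepest rises and falls at the last day in WT cells. They were taken among called members whose libraries of day 0 and the last day did not overlap. Acvrl1 and genes given by a log2 fold change alone were named after their values were seen. Alternatives were DESeq2 1.42.0, limma 3.58.1 (voom with quantile normalization), scaling by library size, other filters, other fold change thresholds, 1 fit over all days, a block for the replicate number, and leaving out each library. The test was checked on simulated counts. Replicates of a group differed by a chi-square per degree of freedom of at least 2.16, so none was counted as a repeat.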

Additional observations from a re-analysis of the deposited data

Results flagged for a closer look

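Differences between cell types in the DKO effect at the end of the courses were tested after the data were seen, on the WT and DKO libraries of both cell types together. The days and the cell types differ together, so they cannot be told apart. Of the members, 5 differed between day 9 in preadipocytes and day 12 in MEFs, where 0.565% of all genes did, and 2 differed between day 6 and day 12, where 2% did (edgeR's quasi-likelihood test of the interaction). Each value is the log2 fold change of DKO against WT in preadipocytes minus that in MEFs. Chrdl1 differed by 1.54 with day 9 (adjusted p = 0.000751) and by 2.01 with day 6 (adjusted p = 0.000222), and both calls were kept in all 12 refits without 1 library. Grem1 differed by -2.19 with day 9 (adjusted p = 0.014, lost in 3 of 12 refits) and by -2.54 with day 6 (adjusted p = 0.00502, kept in all 12). Bmp4, under 1 CPM in preadipocytes of day 9, differed by 1.93 (adjusted p = 0.0214), and this call was lost in 3 of 12 refits and with voom (adjusted p = 0.0968). Gdf10 differed by 1.22 with day 9 (adjusted p = 0.025), and this call was lost in 7 of 12 refits. Smad5 differed by 0.31 (adjusted p = 0.0422), and this call was lost in 11 of 12 refits.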

How the results depend on the processing

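Of 1238 alternative values for 102 pairs of a named gene and a comparison, 1108 kept direction and side of the threshold, 108 were no longer called, 18 became called and 4 reversed. The reversed values were near 0: Bmp4 in MEFs at day 12 was 0.0104 (log2) with 1 fit over all days, 0.0204 without DKO replicate 2 and 0.0657 without WT replicate 1 (range -0.0726 to 0.0657 without 1 library), and Gdf10 in preadipocytes at day 9 was 0.0157 without DKO replicate 3 (range -0.2856 to 0.0157). The cause of the changes was not tested. Members called between DKO and WT with 1 fit over all days numbered 1, 1, 4 and 0 in preadipocytes at days 0, 3, 6 and 9. Of all genes, 90, 396, 1534 and 519 were called there. In MEFs the members numbered 1 and 3 at days 0 and 12 (134 and 209 of all genes). With a threshold of 1 on the absolute log2 scale members called numbered 5 and 1 in preadipocytes at days 6 and 9 (726 and 117 of all genes). There was 1 in MEFs at day 12 (411 of all genes), where no fold threshold gave 19 (5062 of all genes). At day 9 in preadipocytes DESeq2 called 5 (827 of all genes) and a filter of 0.5 CPM in 2 libraries 1 (184 of all genes). For the DKO effect of a later day against day 0, DESeq2 called 4 at day 6 in preadipocytes (1606 of all genes). It called 1 and 4 at days 8 and 12 in MEFs (22 and 143 of all genes). Scaling by library size called 3 and 1 at days 6 and 12 (752 and 6 of all genes), and voom 1 at day 6 (614). Fits on the libraries of the 2 days called 2 and 4 at days 6 and 12 (738 and 384). In the added comparison of preadipocytes at day 6 with MEFs at day 12, DESeq2 called 6 and library-size scaling 4 (754 and 358 of all genes). In DKO MEFs against day 0, the log2 threshold of 1 left 9 at day 12 (2961 of all genes). The fit on 2 days left 11 at day 8 (3174 of all genes).

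The deviations of same-numbered WT and DKO libraries of a day correlated from -0.267 to 0.543 in preadipocytes (5 of 12 over 0.1 and 2 under -0.1) and from -0.687 to 0.602 in MEFs (3 and 5 of 12). Since not every pair was over 0.1 and no label says what a number marks, the numbers are not taken as pairs. With the replicate number as a block, 0 members were called at day 9 in preadipocytes (58 of all genes). For the DKO effect against day 0 there were 3 at day 6 and 1 at day 9 (1113 and 188 of all genes).

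Without 1 library each, the calls between DKO and WT ranged from 0 to 0 in preadipocytes at days 0 and 3, from 3 to 11 at day 6 and from 0 to 12 at day 9, and in MEFs from 0 to 3 at day 0, 0 to 0 at days 4 and 8 and 6 to 7 at day 12. For the DKO effect against day 0 they ranged from 0 to 0, 0 to 3 and 0 to 4 at days 3, 6 and 9, from 0 to 2, 0 to 3 and 0 to 3 at days 4, 8 and 12, and from 0 to 1 between cell types at day 0. Against day 0 they ranged from 13 to 16, 30 to 33 and 26 to 31 in WT and 13 to 21, 31 to 36 and 29 to 30 in DKO preadipocytes, and from 17 to 24, 16 to 19 and 11 to 14 in WT and 16 to 22, 15 to 21 and 13 to 21 in DKO MEFs. Between cell types of WT at day 0 the range was 17 to 23, and in the added comparisons 1 to 10 (day 9 with day 12) and 2 to 8 (day 6 with day 12). Nog, Bmp2 and Bmp4 were under 1 CPM in differentiated preadipocytes, where few counts stand behind each value.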

Other observations

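Among 42 promoter windows of the 34 members with an entry, 26.2% held GGCGCC, against 11.9% of all 32851 windows, 21 of the 42 held CAGAC against 49.6%, and 7.14% held AGGTCA against 16.3%; some members have more than 1 window, and no test was made. Summed over 7 genes, the macrophage markers had 129 to 456.1 CPM in WT preadipocytes at day 0 and 6308 to 10420 CPM at day 6.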
